A study of Sus scrofa with 12 samples.

Results

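The enzymes described here make or modify the lipid mediators derived from arachidonic acid. The list holds 9 genes: the lipoxygenase ALOX15, the cyclooxygenases PTGS1 and PTGS2, the prostaglandin E synthases PTGES, PTGES2 and PTGES3, the prostaglandin dehydrogenase HPGD, and AKR1B1 and CBR1, which reduce prostaglandins. Members were all probe sets whose single gene symbol in the array annotation was one of these names, and 8 of the 24123 probe sets on the array met that rule. They stood for 6 of the 9 genes: ALOX15 (Ssc.10974.1.S1_at), PTGES (Ssc.1310.1.S1_at), PTGES3 (Ssc.19975.1.S1_at and Ssc.25850.1.A1_at), CBR1 (Ssc.250.1.S1_at), PTGS1 (Ssc.16341.1.S1_at and Ssc.1986.1.S1_at) and PTGS2 (Ssc.7314.1.A1_at). No probe set used here carried PTGES2, HPGD or AKR1B1 as its single symbol, so these 3 genes were not analysed here.

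Ovaries came from 12 sows of an F2 cross of the Iberian and Meishan pig breeds, killed on day 30 of pregnancy. By their EBV, the estimated breeding value, 6 sows were placed in the high and 6 in the low prolificacy group, so that the ovarian transcripts of the groups can be compared. No treatment is named, and age is not stated in the labels. Each sow has 1 Affymetrix porcine GeneChip, said in the design text to average both ovaries of the animal, so corpora lutea, follicles, stroma and vessels are read together.

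Cyclooxygenases convert arachidonic acid to the unstable prostaglandin H2. Terminal synthases then turn it into prostaglandin E2 and the other prostanoids, while reductases and the dehydrogenase interconvert or inactivate them. Lipoxygenases compete for the same fatty acid and form hydroperoxides instead. In the pig, prostaglandin F2 alpha of uterine origin ends the life of the corpus luteum, prostaglandin E2 is held to protect it, and a surviving corpus luteum is needed for pregnancy.

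Array medians lay between 4.81 and 4.97 on the deposited log2 scale, with 55.5% to 56.4% of probe sets above 4, the level taken here as measured. Mean rank correlation of a sow with the other sows ran from 0.981 in high 3 and 0.982 in high 2 to 0.989. Transcripts of luteal cells marked the tissue as an ovary with corpora lutea, since 7 of 7 luteal markers were measured, with summed levels of 91.6 to 96.7 in high and 93.5 to 95.6 in low prolificacy sows. Granulosa markers varied far more between sows, with sums of 34.6 to 61.5 in high and 43.6 to 56.8 in low prolificacy sows, with AMH under 4 in every sow. Macrophage markers, 5 of 5 with a probe set measured, summed to between 35.3 and 40.7 in the high and between 35.1 and 39.1 in the low group. The platelet markers PPBP, ITGA2B and GP9 were under 4 in all 12 sows. In such bulk samples fewer cells of a type and less RNA per cell cannot be told apart. Of the 8 member probe sets, 3 passed the filter for testing, a value above 4 in at least 6 sows: those of ALOX15 and PTGES and the brighter one of PTGES3.

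**Figure D1:**
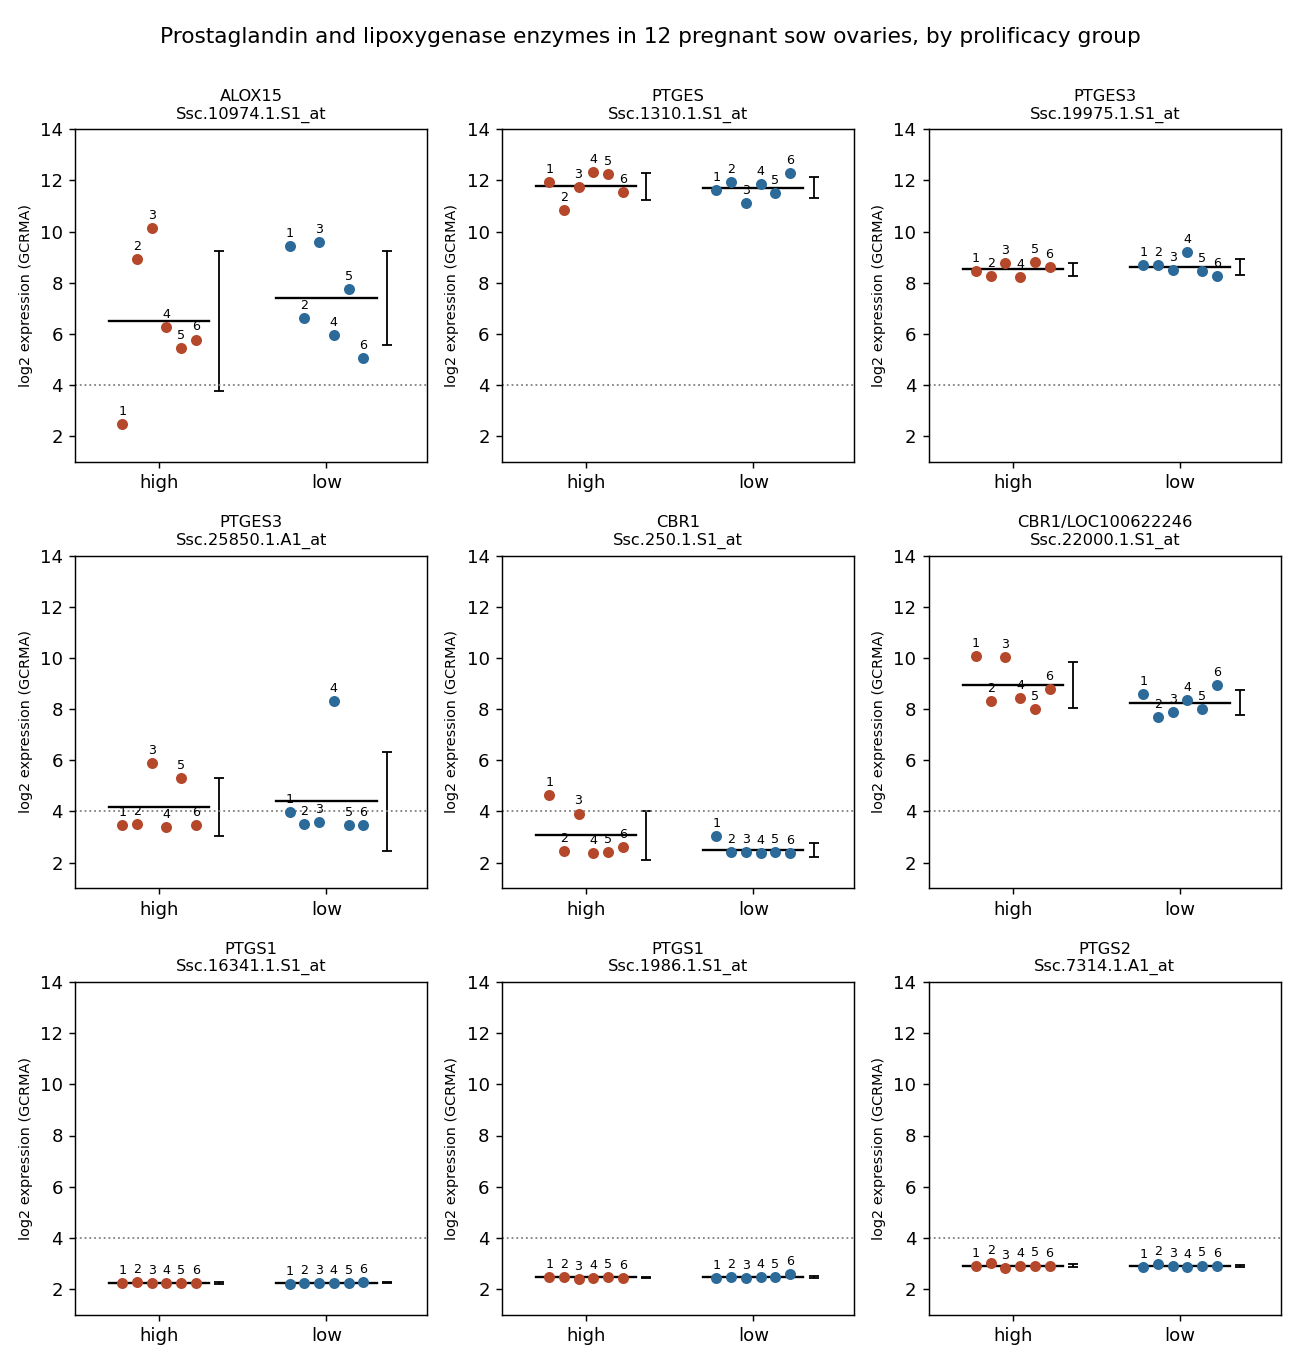
Deposited log2 expression (vertical axes) of the 8 member probe sets, and of 1 probe set shared by CBR1 and LOC100622246, in high (red) and low (blue) prolificacy sows. Each point is a sow with its number, the black line is the group mean, the bar beside it the SD over 6 sows, and the dotted line the level of 4; ALOX15 spans 2.46 to 10.14, while PTGS1 and PTGS2 stay under 4 in every sow.

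ALOX15 (Entrez gene 396971), the pig's leukocyte-type arachidonate lipoxygenase, oxygenates arachidonic and linoleic acid, also within membrane lipids. It was the most variable tested member, and its spread within each group exceeded the gap between the group means. In high prolificacy sows the lowest value was 2.46 in high 1, the median 6.02 and the highest 10.14 in high 3. The low prolificacy sows ran from 5.07 in low 6 through a median of 7.20 to 9.59 in low 3. A bright set of sows was found in both groups: high 2 at 8.92 and high 3 at 10.14, and low 1 at 9.42 and low 3 at 9.59. In the other 8 sows the values were at most 7.76, the value of low 5. High 1 was the only sow of the 12 in which ALOX15 lay under 4, where the normalization draws values toward a floor. The 12 sows thus covered 7.68 on the log2 scale. Their SD of 2.27 was larger than that of 99.9% of the 13390 probe sets tested.

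The groups overlapped widely in ALOX15. The mean was 6.50 ± 2.72 (SD, n = 6) in high and 7.40 ± 1.86 (n = 6) in low prolificacy sows, and 4 of the 6 high sows lay below the low group's mean. The log2 difference, high minus low, was -0.90 (SE 1.20, 95% interval -3.50 to 1.70), with an adjusted p of 0.962 in limma. The interval is wide enough that neither a several-fold lower nor a several-fold higher level is outside it. The difference was -0.091 without high 1, -1.63 without high 3 and -2.41 without high 2 and high 3, the 2 arrays that correlated least with the rest. It was -0.49 without low 1, -0.46 without low 3, -1.38 without high 2, -1.37 without low 6 and -1.72 with array weights, and kept its sign in each of these.

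In the sows with the lowest and the highest ALOX15, high 1 and high 3, the mean level of the granulosa markers was 8.13 and 8.79, and that of the macrophage markers 7.45 and 7.05. The stromal markers stood at 8.64 and 9.22 and the smooth muscle markers at 9.62 and 10.36, high 3 being the highest of the 12 sows in both. High 3 was also the highest in the granulosa, theca, oocyte and mast cell or eosinophil markers, and the lowest in the luteal markers. Over the 12 sows Pearson's r with ALOX15 was 0.37 for the stromal, 0.18 for the smooth muscle, -0.14 for the granulosa and -0.16 for the macrophage markers. The part of any of these cell types in the ALOX15 values was not tested. High 1 and high 3 were both rich in aromatase, the oestrogen-forming enzyme of follicles, read by CYP19A3 at 12.74 and 11.59. The mean level of the luteal markers was 13.32 in high 1 and 13.08 in high 3. The albumin transcript stood at 12.61 in low 1, 8.80 in low 3, 3.33 in high 2 and 2.05 in high 3, the sows with bright ALOX15. Low 4 and high 5 were bright in albumin as well, at 12.40 and 8.67, with ALOX15 at 5.94 and 5.45. Pearson's r of albumin and ALOX15 over the 12 sows was 0.21. The array reads albumin as a transcript and not as the plasma protein. The source of the albumin signal and its part in the ALOX15 values were not tested. With albumin as a covariate the ALOX15 difference was -0.61, and with aromatase as a covariate it was -1.24.

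PTGES, the inducible microsomal synthase that forms prostaglandin E2, was measured in every sow. Its SD over the 12 sows, 0.45, was larger than that of 77.9% of the probe sets tested. High prolificacy sows ran from 10.85 in high 2 through a median of 11.83 to 12.31 in high 4. Low prolificacy sows ran from 11.10 in low 3 through a median of 11.75 to 12.29 in low 6. The groups covered nearly the same interval, with means of 11.77 ± 0.53 and 11.72 ± 0.41 (SD, n = 6 each). The log2 difference was 0.049 (SE 0.25, 95% interval -0.50 to 0.60, limma adjusted p = 0.990). Its size rested on single sows, at 0.23 without high 2 and -0.074 without low 3.

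PTGES3, the cytosolic prostaglandin E synthase that also serves as the HSP90 co-chaperone p23, was read by a pair of probe sets. The brighter one, Ssc.19975.1.S1_at, ran from 8.21 through a median of 8.54 to 8.79 in high and from 8.28 through 8.58 to 9.18 in low prolificacy sows. The means were 8.52 ± 0.25 and 8.63 ± 0.31 (SD, n = 6 each), and low 4 was the highest sow of all. The log2 difference was -0.11 (SE 0.16, 95% interval -0.45 to 0.24, limma adjusted p = 0.967). It was 0.0035 without low 4 and 0.11 with the 3' minus 5' difference of the actin control probe sets, which reflects RNA integrity, as a covariate. That difference was itself 2.59 ± 0.45 in high and 2.12 ± 0.13 in low prolificacy sows (SD, n = 6 each). Albumin was bright in low 4, at 12.40, and the PTGES3 difference was 0.034 with albumin as a covariate.

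The dimmer PTGES3 probe set, Ssc.25850.1.A1_at, was near its floor in most sows and bright in a few. It reached 8.33 in low 4, 5.88 in high 3 and 5.31 in high 5, and lay between 3.38 and 3.99 in the other 9 sows. With 3 sows above 4 it was not tested. The sows in which it was bright were also the 3 highest in the brighter probe set, at 9.18, 8.78 and 8.79. Pearson's r between the pair was 0.85 over 12 sows and 0.69 without low 4, as a description. The spread differed greatly between them, with 0.97 from the lowest to the highest sow in Ssc.19975.1.S1_at and 4.95 in Ssc.25850.1.A1_at.

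**Figure D2:**
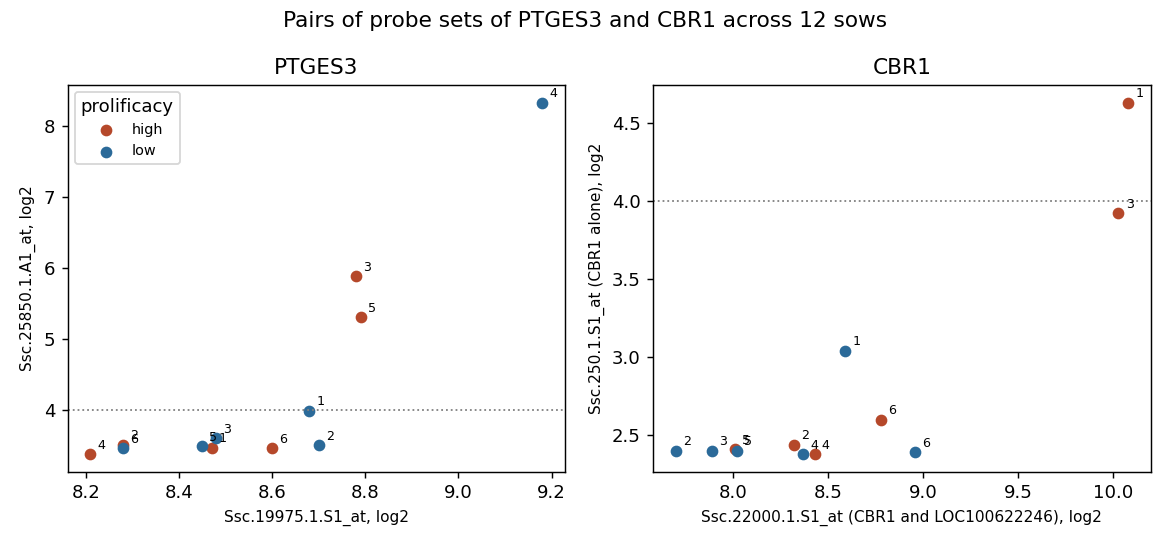
Log2 values of both probe sets of PTGES3 (left) and of the CBR1 probe set against the probe set shared by CBR1 and LOC100622246 (right). Each point is a sow with its number, red for high and blue for low prolificacy, and the dotted line is the level of 4; low 4 stands apart in PTGES3, and high 1 and high 3 in CBR1.

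The cyclooxygenase genes were not measured above 4 in any sow. PTGS1, the constitutive enzyme, ran from 2.21 to 2.28 in 1 probe set and from 2.41 to 2.57 in the other. PTGS2, the inducible enzyme that follicles make around ovulation, had its lowest value, 2.84, in high 3 and its highest, 3.02, in high 2. The SD over the 12 sows was 0.022 and 0.039 for PTGS1 and 0.047 for PTGS2, and both groups averaged 2.24 in the first PTGS1 probe set. Between the PTGS1 probe sets Pearson's r was 0.85 and Spearman's rho 0.93 over 12 sows, as a description. Their values covered only 0.08 and 0.16 on the log2 scale, and the source of this shared order was not tested. These PTGS1 and PTGS2 values are at the floor of the scale, and no difference between sows or groups is read from them. They say that a level was not detectable with these probe sets, not that the transcripts are absent.

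CBR1, a carbonyl reductase that acts on prostaglandin E2 and on steroids, was at its floor in most sows. Its own probe set stood at 4.63 in high 1, 3.92 in high 3 and 3.04 in low 1, and between 2.38 and 2.60 in the other 9 sows. With 1 sow above 4 it was not tested. A further probe set, Ssc.22000.1.S1_at, is annotated to CBR1 and to LOC100622246 and is therefore no member, since the genes cannot be told apart in it. It was measured in all 12 sows, and its highest values, 10.08 and 10.03, were those of high 1 and high 3. The other 10 sows lay between 7.70 and 8.96. Pearson's r between the pair was 0.88 over 12 sows and 0.82 without high 1, but Spearman's rho was 0.43. Most sows are at the floor of the CBR1 probe set, and the reason for the lower rho was not tested. The 3 highest sows of the shared probe set, high 1, high 3 and low 6 at 8.96, were also the 3 highest in CYP19A3, at 12.74, 11.59 and 12.40. In low 6 the CBR1 probe set stood at 2.39.

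The shared CBR1 probe set had a mean of 8.94 ± 0.90 in high and 8.25 ± 0.48 in low prolificacy sows (SD, n = 6 each). The log2 difference was 0.69 (95% interval -0.12 to 1.5), with a limma adjusted p of 0.888. It was 0.46 without high 1, 0.47 without high 3 and 0.52 with array weights. As a covariate, aromatase gave 0.94 (limma adjusted p = 0.337) and the actin 3' minus 5' difference 1.32 (limma adjusted p = 0.199). Of the 6 high sows, 5 lay above the low group's mean, but only high 1 and high 3 lay above the low group's highest value, 8.96.

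Of the 3 tested member probe sets, 0 passed a limma adjusted p of 0.05 between the groups, where 0.0% of the 13390 probe sets tested did. The remaining member probe sets were under the filter and were not tested. At an unadjusted p under 0.05, again in limma, 0 of the 3 passed, where 5.64% of all tested did. The values of the groups overlapped in 3 of 3, and 0.471% of all tested probe sets did not overlap. The median difference of the 3 was -0.107, beside -0.01 over all probe sets tested. A p above the threshold does not show that the groups are alike: the median half-width of the 95% interval was 0.55 for these 3 and 0.35 over all tested.

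**Figure D3:**
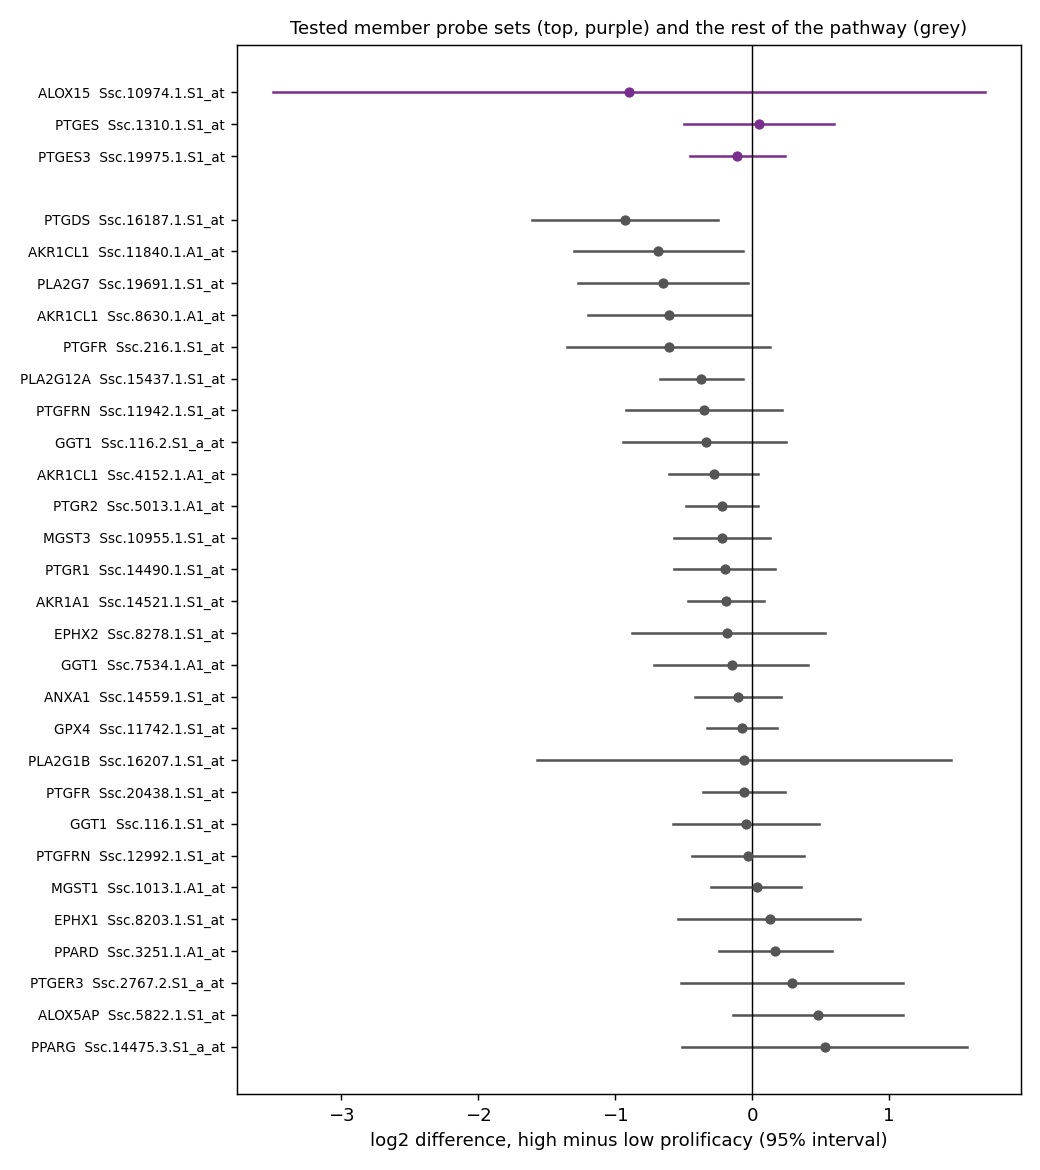
Log2 difference, high minus low prolificacy (horizontal axis), with its 95% interval from limma, for the 3 tested member probe sets (purple, top) and the 27 tested probe sets of other genes of the pathway (grey), ordered by their difference. ALOX15 has the widest interval, from -3.50 to 1.70, and PTGDS has the lowest value of the grey points, at -0.93.

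Between sows, ALOX15 and PTGES tended to run opposite to each other without passing the correction for the pairs compared. Over 12 sows Pearson's r was -0.607 (permutation p = 0.0357, adjusted p = 0.107 over 3 pairs) and Spearman's rho -0.587 (permutation p = 0.0488, adjusted p = 0.146). The r was -0.79 without high 1 and high 3, the 2 sows farthest from the ALOX15 median. It was -0.471 within the high and -0.876 within the low group, each of 6 sows, and -0.609 with the group means removed. The lowest PTGES values were those of high 2, at 10.85, and low 3, at 11.10, and ALOX15 stood there at 8.92 and 9.59. In high 3 and high 1, the sows of highest and lowest ALOX15 at 10.14 and 2.46, PTGES was 11.74 and 11.92. ALOX15 and PTGES3 gave an r of 0.037 (rho 0.07, permutation p = 0.908 and 0.836, both adjusted p 0.888 or more). PTGES and PTGES3 gave an r of 0.112 (rho 0.049, permutation p = 0.727 and 0.888, both adjusted p 0.888 or more).

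**Figure D4:**
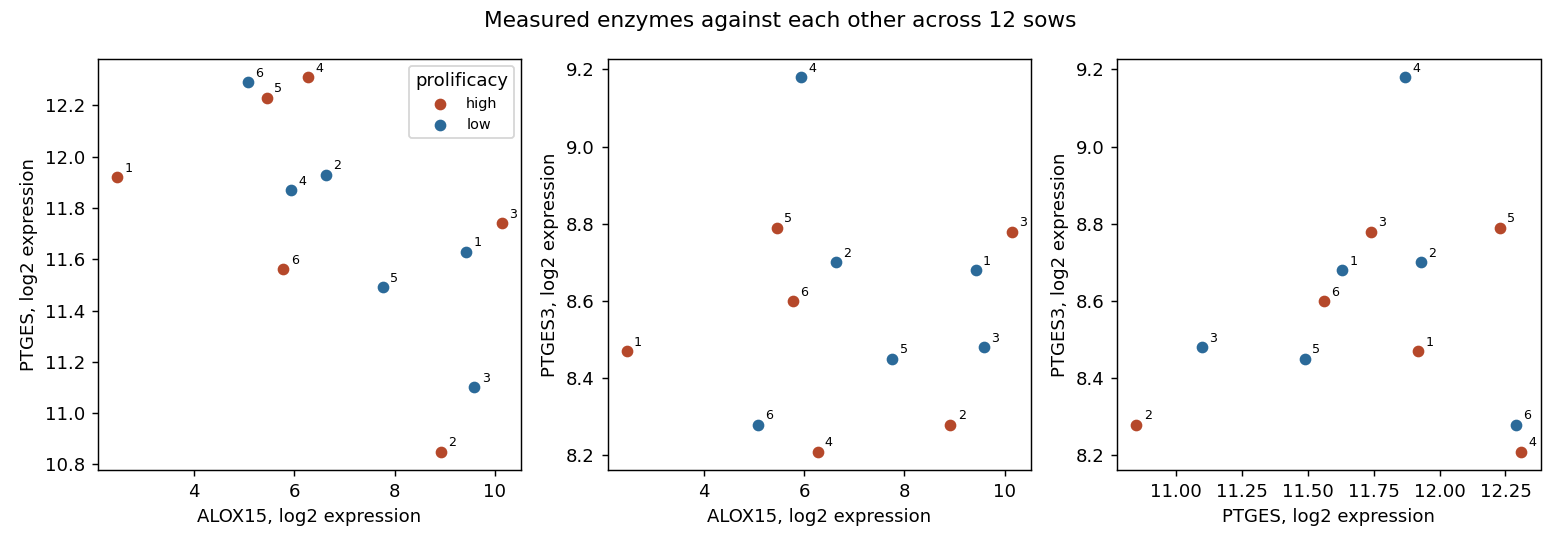
Log2 expression of ALOX15, PTGES and the brighter PTGES3 probe set against each other, with each sow as a numbered point, red for high and blue for low prolificacy. In the left panel the sows with ALOX15 above 8 have PTGES between 10.85 and 11.74, and the others have PTGES between 11.49 and 12.31, so the ranges overlap.

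Genes whose levels followed a member most closely across the 12 sows were looked up among 6656 tested probe sets with 1 symbol, by Pearson's r, as a description. For ALOX15 these were MRPL9, a mitochondrial ribosomal protein, at 0.82, RPL24, of the cytosolic ribosome, at 0.81 and EIF4A1, a translation initiation helicase, at 0.78. All of these covered a far narrower range than ALOX15, such as 8.73 to 9.17 for MRPL9. For PTGES they were CCS, the copper chaperone of superoxide dismutase, at 0.86, GCLC, of glutathione synthesis, at 0.81 and EML2, a microtubule-associated protein, at 0.80. Spearman's rho with PTGES was 0.71 for CCS, 0.50 for GCLC and 0.78 for EML2. GCLC ran from 3.41 to 5.79, so partly under 4. For PTGES3 they were the nuclear export factor NXT1 at 0.83, the RNA exosome subunit EXOSC3 at 0.82 and the apoptosis regulator BID at 0.80. The highest of so many values over 12 sows is high whatever the genes, and no p is given.

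Other genes of the eicosanoid pathway were read from a list of 61, of which 29 had a probe set of their own symbol and 21 had at least 1 tested, 27 probe sets in all. Of these 27, 0 rose and 0 fell at a limma adjusted p of 0.05. Their differences were below 0 in 21 and above 0 in 6, with a median of -0.176, beside 52.4% below 0 and a median of -0.01 over all tested. At an unadjusted p under 0.05 in limma there were 5, each lower in high prolificacy sows, where 3.38% of all tested probe sets met that in this direction. These 5 stood for 4 genes, since AKR1CL1 gave 2 of them. There were 2 in place of 5 without low 1 or without high 2, and 3 without high 4, without low 2 or without high 2 and high 3 together. Without high 1, and also with array weights, there were 6.

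Synthesis beside the members was read by PTGDS and AKR1CL1. PTGDS, a prostaglandin D synthase that also carries lipids, ran from 7.26 through a median of 8.37 to 9.08 in high and from 8.36 through 9.34 to 9.88 in low prolificacy sows. All 6 high sows lay below the low group's mean, though the groups overlapped. The log2 difference was -0.93 (95% interval -1.61 to -0.25, limma adjusted p = 0.771). For PTGDS it was -0.63 with the actin 3' minus 5' difference as a covariate, and ran from -1.1 to -0.74 with a sow left out. AKR1CL1, of the aldo-keto reductase family that holds prostaglandin F synthases, differed by -0.69, -0.61 and -0.28 in its 3 probe sets (limma adjusted p = 0.839, 0.866 and 0.888). With the actin 3' minus 5' difference as a covariate these were -0.28, -0.36 and -0.20, and without high 2 and high 3 they were -0.50, -0.31 and -0.13. Its brightest probe set averaged 13.12 ± 0.34 in the high against 13.40 ± 0.15 in the low group (SD, n = 6 each). Thromboxane synthase TBXAS1 was above 4 in 2 sows, with a highest value of 4.86, and was not tested.

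Phospholipases, which release fatty acids from membranes or cleave oxidised lipids, were read by 3 tested probe sets. That of the secreted PLA2G1B differed by -0.061 (95% interval -1.57 to 1.45, limma adjusted p = 0.995). PLA2G12A, a secreted phospholipase A2, averaged 8.87 ± 0.28 in the high against 9.24 ± 0.18 in the low group (SD, n = 6 each), a difference of -0.37 (limma adjusted p = 0.834). PLA2G7, the platelet-activating factor acetylhydrolase of macrophages, differed by -0.65 (limma adjusted p = 0.860). With the actin difference as a covariate PLA2G12A differed by -0.62 and PLA2G7 by -0.31. The part of macrophage content in PLA2G7 was not tested.

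PTGFR, the receptor through which prostaglandin F2 alpha acts on luteal cells, differed by -0.057 and -0.61 in its probe sets (limma adjusted p = 0.987 and 0.896). Without high 3 these were 0.061 and -0.35, and with the actin difference as a covariate -0.30 and -0.99. The second was -0.24 with array weights and also without high 2 and high 3. PTGR1 and PTGR2, reductases that inactivate prostaglandins, differed by -0.20 and -0.22 (limma adjusted p = 0.931 and 0.888). ALOX5AP, the partner protein of 5-lipoxygenase in leukotriene synthesis, averaged 6.23 ± 0.69 in the high against 5.75 ± 0.33 in the low group (SD, n = 6 each), a difference of 0.48 (limma adjusted p = 0.899). No probe set used here carried SLCO2A1, PTGER2, PTGER4, PTGIS, PLA2G4A or LTA4H as its single symbol.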

How the data were processed

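The deposited table holds log2 expression values per probe set for 24123 probe sets and 12 sows. They were made by the authors with GCOS and GCRMA, per the submitters' processing notes, without a stated version. GCRMA models background from the probe sequence, scales arrays to a common distribution and combines probes. That the scale is log2 follows from the range, 0.97 to 15.34. GCRMA compresses differences near the floor. Symbols came from the platform annotation.

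After leaving out 124 control probe sets, those above 4 in at least 6 sows (13390) were compared with limma 3.58.1 in R 4.3.3, without covariates, with Benjamini-Hochberg adjustment over all of them at 0.05. All tests are two-sided, and correlations used 100000 permutations. The replicates are separate animals per the labels, and their relatedness was not examined. The number of arrays limits the precision. The names of 62 porcine control probe sets were displaced by 21 places against the values and were moved back for the actin 3' minus 5' difference, which lowered the mean gap to 19 spike controls from 5.17 to 0.451. The scripts were tested on simulated data. No arrays held identical values.

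Members and lists were chosen with earlier results of these data known. Named pathway genes were the 6 tested probe sets of smallest p and 8 genes listed by name, and PLA2G1B, TBXAS1, PTGR1 and PTGR2 were added after their values were seen. Those most like a member were the 3 of highest r. Alternatives were other filters, scalings and moderation, array weights, covariates, the animal number as a block and sows left out. No genome was given, so positions and sequences are not given here.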

Additional observations from a re-analysis of the deposited data

Results flagged for a closer look

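In 36 groups of 6 sows, 1 for each probe set and prolificacy group, 4 values stood apart from the rest of their group by more than 0.625 of the group's range, a gap that chance alone gives in about 1 group in 20. The dimmer PTGES3 probe set stood at 8.33 in low 4, where the next highest low prolificacy sow had 3.99. CBR1 stood at 3.04 in low 1 with the next sow at 2.40, all of them below 4. PTGS1 stood at 2.28 in high 2 in 1 probe set and at 2.57 in low 6 in the other, each within the floor of the scale. Low 6 was at 2.28 in the first of these too, without being flagged there.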

How the results depend on the processing

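The counts of member probe sets and of pathway probe sets past the limma adjusted threshold were 0 under all 23 alternatives run, and over all tested probe sets the count ran from 0 to 1 with a sow left out, the 1 being found without low 1 (adjusted p = 0.0454). The deviations of same-numbered sows correlated between -0.455 and 0.168, which shows no pairing by animal number but cannot exclude one. With the number as a replicate block 0 probe sets passed and 662 had an unadjusted p under 0.05, against 755 without it, 3 of them in the pathway list against 5. The pathway list also had 3 with no filter, with aromatase and with albumin as covariates. Over all tested probe sets the unadjusted count was 2178 with the actin difference and 1202 with aromatase as a covariate. ALOX15 kept its sign throughout. With a sow left out PTGES ran from -0.074 to 0.23, the brighter PTGES3 probe set from -0.18 to 0.0035 and the brighter PTGFR probe set from -0.12 to 0.061. That PTGES3 probe set turned to 0.11 with the actin difference and 0.034 with albumin as a covariate, and that PTGFR probe set to 0.0055 with quantile normalization, 0.042 with array weights and 0.074 without high 2 and high 3. The r of ALOX15 and PTGES3 turned to -0.191 without the 2 farthest sows, -0.116 within the low group and -0.0051 with group means removed, and that of PTGES and PTGES3 to -0.305 without the 2 farthest sows. For these turns the cause was not tested. Signal near the floor limits PTGS1, PTGS2 and CBR1.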
